A study of Saccharomyces cerevisiae with 6 samples.

Results

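YRO2, MRH1 and HSP30 are 3 related genes of budding yeast (Saccharomyces cerevisiae) that encode multi-pass proteins of the plasma membrane. They were chosen by name from the probe annotation, and the group was proposed with the measured thorium ratios of these same arrays in view. The ratios of the 3 genes are therefore given as a description, with no test. Each gene had 1 probe, among 5365 named genes with a probe. YRO2 and HSP30 were among the 3613 genes with a value in all 3 replicates, while MRH1 had a value in 2 replicates.

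All 3 proteins belong to a family that resembles the microbial opsins in sequence. HSP30, which the reference table also lists under the older name YRO1, encodes a heat shock protein of the plasma membrane that limits the activity of the proton pump Pma1. It is known to be induced by heat, ethanol and weak organic acids. MRH1 takes its name from its relation to Hsp30, and YRO2 is its paralog from the ancient genome duplication of yeast. YRO2 is known as a gene of the response to acetic acid, where it is a target of the transcription factor Haa1.

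The strain was S288C, grown with shaking in YPD (a rich glucose medium) at 25 °C. Thorium-treated cells received thorium at 5 mM in exponential growth at an OD of 1 and were exposed for 2 h. Untreated cells reached the same OD and were grown for a further 2 h with nothing added. PolyA RNA from thorium-treated cells carried Cy5 and that from untreated cells Cy3, both on the same array. Each of the 3 hybridizations came from its own biological sample and is 1 replicate, read by a high power and a low power laser scan. No hybridization had the dyes exchanged, so dye and treatment cannot be told apart. Values are log2 ratios, read as thorium over untreated from the order of the channels. That direction is likely rather than stated, and base 2 is an assumption. The RNA is of whole cultures, so a higher ratio cannot tell more RNA in every cell from much more in some cells.

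Replicate 1 stood apart from the others. Across the 3613 genes its ratios had a Pearson correlation of 0.09 with replicate 2 and 0.02 with replicate 3, while replicates 2 and 3 correlated at 0.56. Genes are not independent replicates, so these values describe the arrays. The high power scans held values for 4198, 5483 and 5435 of the 6912 probes in replicates 1, 2 and 3, and the low power scans for 2782, 3780 and 4552. Array sections, groups of 36 probes read from the probe number, also differed in their level. Section medians ran from -1.54 to 2.20 in the high power scan of replicate 1 and from -1.20 to 1.03 in that of replicate 3.

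As deposited, the 3 genes did not share a level in thorium. YRO2 stood about 3-fold above untreated cells, and HSP30 stood slightly below them. MRH1 also read slightly below, but it changed sign when each scan was centred on its array section. The value of YRO2 was 1.58 in replicate 1, 1.89 in replicate 2 and 1.25 in replicate 3. All replicates lay above 0, with folds of 3.00, 3.71 and 2.37. The mean was 1.57 ± 0.32 on the log2 scale (SD, n = 3), a fold of 2.98.

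By scan, YRO2 read 1.52 at high and 1.65 at low power in replicate 1, and 1.22 and 1.27 in replicate 3. Replicate 2 gave only a low power value, 1.89. The gap between the scans, high minus low, was -0.13 in replicate 1 and -0.04 in replicate 3, where the median absolute gap over all genes read in both scans was 0.35 and 0.11. The scans of a replicate therefore lay closer together for YRO2 than for the typical gene.

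HSP30 read -0.18 in replicate 1, -0.19 in replicate 2 and -0.44 in replicate 3. Every replicate lay below 0, as held for 23.2% of all genes, and none reached the lowest YRO2 value. Its mean was -0.27 ± 0.14 (SD, n = 3), a fold of 0.830. The scans were -0.19 and -0.18 at high and low power in replicate 1, and both -0.44 in replicate 3. Replicate 2 again gave a low power value alone. A low power value without a high power one was rare in replicate 2, with 32 of 3780 probes (0.847%), and the probes of YRO2 and HSP30 were both among them. The labels describe the low power scan as a way to recover spots too bright for the scanner, and the brightness of these spots is not analysed here.

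MRH1 had no value in replicate 1. In replicate 2 it read -0.44 and in replicate 3 -0.18, a mean of -0.31 ± 0.18 (SD, n = 2) and a fold of 0.806. The scans of replicate 3 were close, -0.18 at high and -0.19 at low power. Those of replicate 2 were not, with -0.76 at high and -0.12 at low power, a gap of -0.64 where the median absolute gap was 0.46. The missing replicate was not particular to the gene: none of the 36 probes of its array section had a value in replicate 1, and the same held for 11 of the 192 sections.

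**Figure D1:**
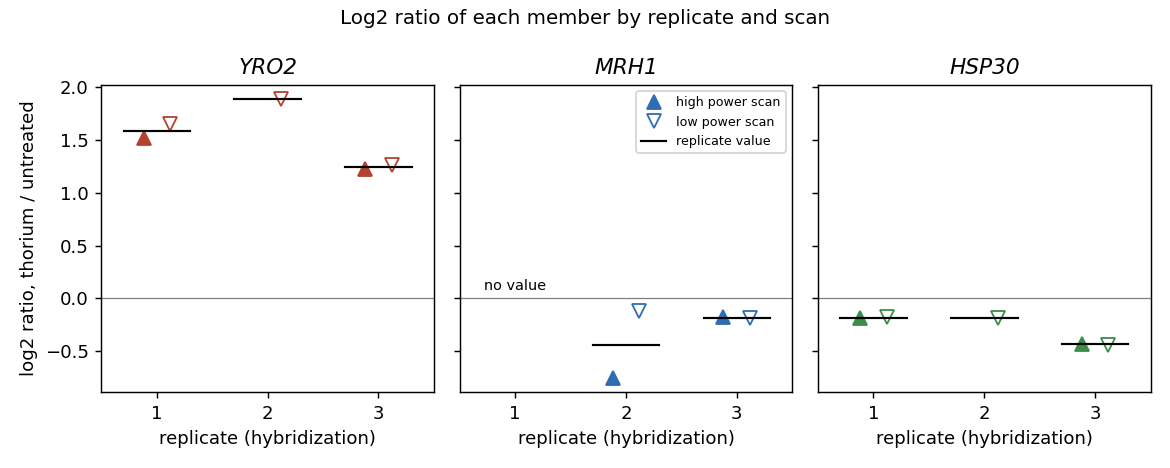
Log2 ratio of thorium over untreated cells for YRO2, MRH1 and HSP30 in each replicate. Filled triangles are high power scans, open triangles low power scans, and bars the replicate values. YRO2 lies between 1.25 and 1.89 in every replicate, and HSP30 and MRH1 lie below 0 in every replicate that gave a value.

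Among the 3613 genes, the mean of YRO2 was the 21st from the top, with 0.554% of genes higher. By replicate it ranked 156 in replicate 1, 45 in replicate 2 and 106 in replicate 3. Counting YRO2, 10 genes had a lowest replicate at least as high as its lowest. The others were TIR1, MIG2, DAN1, SOD2, SLZ1, AHC1, GAS5, SNC1 and MOH1, named here after their values were seen. For TIR1 the replicate 1 value averaged scans that lay far apart, with the high power scan 5.26 above the low power one. The SD of YRO2, 0.32, was below the median of 0.52 over all genes, and 25.8% of genes had a smaller one. HSP30 sat within the bulk of genes, with 35.7% of means lower than its own, and only 6.23% of genes had a smaller SD than its 0.14. By replicate HSP30 ranked 1938, 1941 and 2567 from the top in replicates 1, 2 and 3. Over the 4790 genes with values in replicates 2 and 3, 35.5% had a lower mean than MRH1.

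The fit over all genes used limma's moderated test with Benjamini-Hochberg adjustment at a threshold of 0.05. It called 0 of 3613 genes (0% called; 499 had an unadjusted p under 0.05), so 0 of the other genes named below passed it. The count depended on replicate 1: without it, 191 genes were called (5.29% called), 81 higher and 110 lower in thorium. That fit rested on replicates 2 and 3 alone, and leaving out replicate 2 or replicate 3 instead called 0 genes. Calls without replicate 1 that are given below describe those 2 replicates. Without replicate 1 the mean of YRO2 was 1.57 and that of HSP30 -0.31, and MRH1 kept its value, since it had none there.

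The array section of each probe moved with part of these values. In replicate 1, YRO2 was the highest of the 28 probes of its section read at high power and of the 26 read at low power, while the section medians were -0.53 and -0.38. In the low power scan of replicate 2 it was the highest of 27, against a section median of -0.15. In replicate 3 the whole section was high, with medians of 0.86 at high and 0.91 at low power, and 7 and 5 other probes lay above YRO2. With each scan centred on the section, YRO2 read 2.04, 2.04 and 0.36 in replicates 1, 2 and 3, a mean of 1.48 ± 0.97 (SD, n = 3). The mean thus moved by less than its SD, while the spread over replicates was wider, with replicate 3 the lowest. The part of the section level in the YRO2 value was not tested.

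MRH1 changed sign under the same step. Its section was low in every scan that gave values, with medians of -1.19 and -0.73 in replicate 2 and -0.57 and -0.52 in replicate 3. MRH1 lay above the section median in all 4 scans. Centred on its section it read 0.52 in replicate 2 and 0.37 in replicate 3, a mean of 0.44 ± 0.11 (SD, n = 2). No direction can therefore be given for MRH1. HSP30 moved little, to -0.06, -0.25 and -0.40 with a mean of -0.24 ± 0.17 (SD, n = 3). Each replicate value of HSP30 was below 0 in both forms. When centred, 24.4% of all genes were below 0 in every replicate, like HSP30. Its -0.06 in replicate 1 averaged centred scans of opposite sign, 0.14 at high and -0.27 at low power. In that low power scan only 8 probes of the section had a value.

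**Figure D2:**
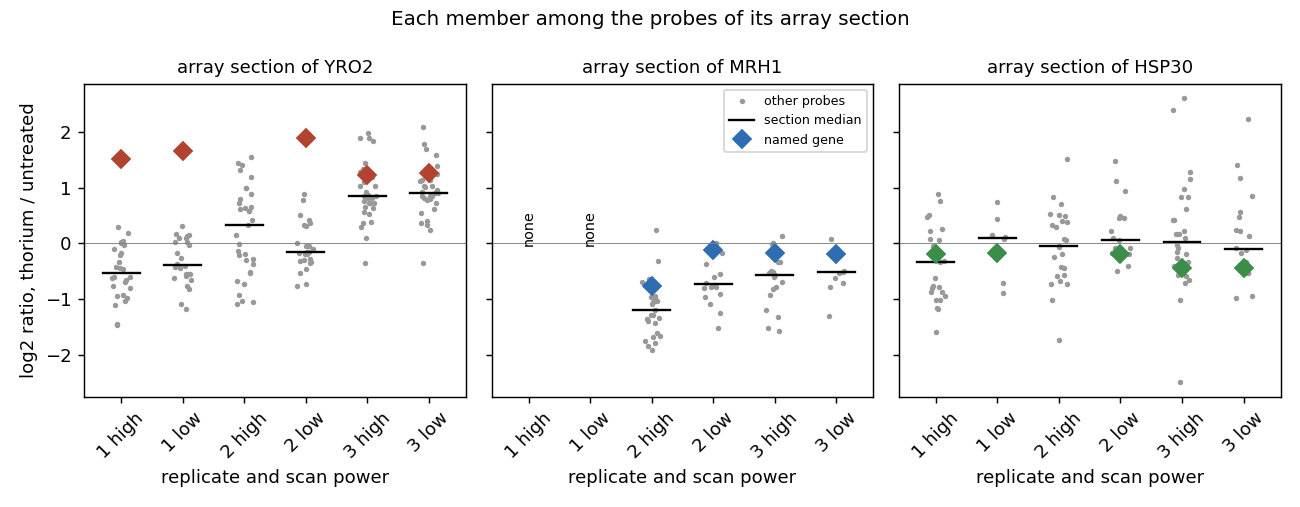
Log2 ratio of thorium over untreated cells for all probes with a value in the array section that holds each gene, by replicate and scan power. Grey points are other probes, black bars section medians and diamonds the named gene. YRO2 tops its section in each of its scans of replicates 1 and 2 and sits within a raised section in replicate 3 (medians 0.86 and 0.91). MRH1 lies above the median of a lowered section in every scan that gave it a value, and its section has none in replicate 1.

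The difference between paralogs shows the same dependence. As deposited, YRO2 exceeded MRH1 by 2.33 in replicate 2 and by 1.43 in replicate 3, a mean difference of 1.88 ± 0.64 (SD, n = 2). Section-centred, these differences were 1.52 and 0.00, with a mean of 0.76 ± 1.07 (SD, n = 2). YRO2 exceeded HSP30 by 1.77, 2.08 and 1.68 in replicates 1, 2 and 3, a mean of 1.84 ± 0.21 (SD, n = 3). After section-centring it did so by 2.10, 2.30 and 0.76, a mean of 1.72 ± 0.84 (SD, n = 3). In neither form did a replicate place YRO2 below HSP30. MRH1 and HSP30 differed by -0.25 in replicate 2 and 0.26 in replicate 3 as deposited, and by 0.78 and 0.76 when centred. These differences come from the contrast that was in view when the genes were chosen and carry no test. No probe sequences were used, so whether the probes separate the 3 genes is unknown.

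For scale, 12 other pairs of related genes from the lists below had values in at least 2 replicates. Their mean differences ran from 0.01 to 1.44 in size, with a median of 0.48, and 0 pairs exceeded YRO2 and MRH1. FMP45 and YNL194C, 2 relatives of the eisosome protein Sur7, came closest, with FMP45 lower by a mean difference of -1.44 ± 0.61 (SD, n = 3). Section-centred, that difference was -0.49 ± 0.84 (SD, n = 3), with replicate 2 at 0.19. Section-centred, the sizes ran from 0.02 to 1.19 with a median of 0.31, and 2 pairs exceeded YRO2 and MRH1. The pairs were picked after values were seen.

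**Figure D3:**
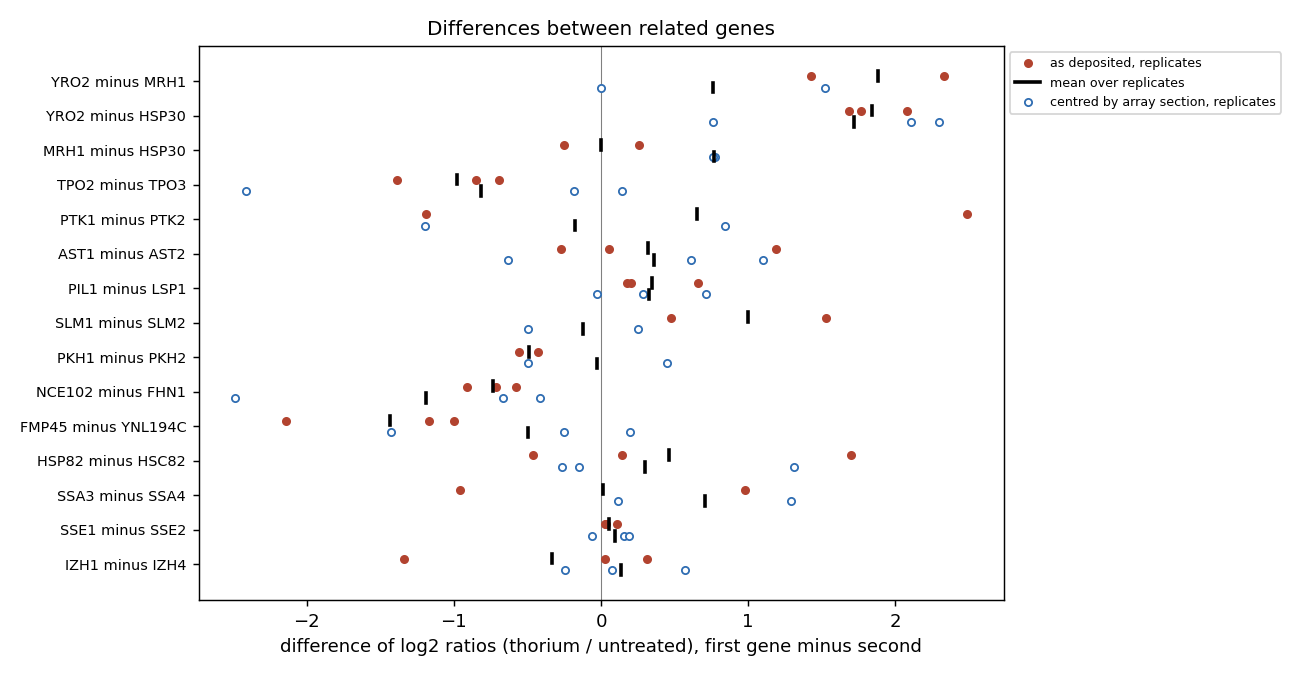
Difference of log2 ratios (thorium over untreated) within pairs of related genes, first gene minus second. Filled points are replicates as deposited, open points replicates centred by array section, and black bars their means. YRO2 minus HSP30 stays between 0.76 and 2.30 in every replicate of both forms, while YRO2 minus MRH1 includes 0.00 after centring.

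By root mean square difference over the 3 replicates, the gene nearest to YRO2 was GAS5, a cell wall glucanosyltransferase gene, at 0.079. GAS5 read 1.53, 1.78 and 1.31. YDR262W followed at 0.183, then RTN1, a reticulon gene that shapes the endoplasmic reticulum, at 0.189. The other two were SNC1, a vesicle SNARE gene, at 0.207, and NPC2, a sterol transfer gene, at 0.229. For HSP30 the nearest were APL3 (0.026), CDC53 (0.052), QRI1 (0.059), MTQ1 (0.061) and BRE5 (0.061), all with means between -0.31 and -0.23. For MRH1, over replicates 2 and 3, they were PET191 (0.0061), CEG1 (0.0086), AIM24 (0.0090), ECM33 (0.013) and MCH1 (0.019). Many genes lie near 0, so small distances are common for HSP30 and MRH1.

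Genes of the response to weak acids, to which YRO2 and HSP30 belong, lay on both sides of 0. In a list of 24 weak acid genes and Haa1 targets without the 3 genes, 23 had a probe and 14 were measured in all replicates. Of these, 7 means lay above 0 and 7 below, with a median of 0.06, where the median of all genes was -0.09 and 43.5% lay above 0. Above 0 in every replicate were 2 of the 14, against 15.4% of all genes. TDA6 had the highest mean, 1.21 ± 0.97, and PHM8, a nucleotidase gene, stood at 0.75 ± 1.05 (SD, n = 3). COM2, a transcription factor gene, stood at -1.16 ± 0.22. It was the only gene of the 14 called by limma without replicate 1, as lower (7.14%, where 5.29% of all genes were called). HSP12, a membrane-associated small heat shock protein gene, stood at -0.82 ± 0.93 (SD, n = 3). For PHM8 and HSP12 the spread exceeded the size of the mean. HAA1 itself was read only in replicates 2 and 3. The drug pump paralogs TPO2 and TPO3, both Haa1 targets, had means on opposite sides of 0 (-0.55 ± 0.74 and 0.43 ± 0.70; SD, n = 3).

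Hsp30 acts on the proton pump Pma1, but PMA1 had no value in any scan. The paralog PMA2 read -0.52 in replicate 2 and -0.08 in replicate 3. Of 10 genes for the pump and its partners, 9 had a probe and 5 a value in all replicates. Of these 5 means, 4 lay above 0, where 43.5% of all genes did, with a median of 0.39 for the 5. PMP3, a small membrane protein gene linked to the membrane potential, was the highest at 1.89, 1.70 and 0.73, a mean of 1.44 ± 0.62 (SD, n = 3). AST1, which helps to deliver Pma1 to the cell surface, stood at 0.69 ± 0.50, and its relative AST2 at 0.37 ± 0.30 (SD, n = 3). PMP2, a proteolipid of the pump, read 1.33 in replicate 1 but -0.15 and -0.01 in the others. The pump kinase gene HRK1 likewise read -1.31 in replicate 1 against 0.60 and 0.52. PTK2, the kinase best known to activate the pump, and PTK1 had values of opposite sign in replicates 2 and 3 (-0.82 and 0.96, and 1.66 and -0.23).

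Lists of heat shock and general stress genes were also read beside the 3 genes. Most heat shock means lay below 0, but so did 2042 of all 3613 genes. Most general stress means lay above 0, where 43.5% of all genes did. Whether HSP30 or YRO2 shares control with either list was not tested. Of 22 measured targets of the heat shock factor Hsf1, 18 means lay below 0 and 9 genes were below 0 in every replicate, with a median of -0.28. Below 0 in every replicate were 23.2% of all genes. Without replicate 1 the median was -0.47, and 16 of the 22 lay below 0 in both remaining replicates, as did 40.0% of all genes. BTN2, which sorts misfolded proteins, stood at -2.33 ± 1.51, CUR1, its paralog, at -1.80 ± 0.79, FES1 at -1.37 ± 1.01 and the Hsp90 gene HSC82 at -0.71 ± 0.43 (SD, n = 3). Without replicate 1, 4 of the 22 were called lower by limma, BTN2, CUR1, FES1 and CPR6, and 0 higher, where 5.29% of all genes were called in either direction. Of 24 measured general stress genes, 18 means lay above 0, with a median of 0.71. Above 0 in every replicate were 13 of the 24, against 15.4% of all genes. Below 0 in every replicate were 4 of the 24, against 23.2% of all genes, and 0 of the 24 when section-centred. As deposited these were HSP12 at -0.82 ± 0.93, PNC1 at -0.65 ± 0.25, TPS2 at -0.53 ± 0.52 and OM45 at -0.11 ± 0.04 (SD, n = 3). XBP1, a repressor gene, led at 1.60 ± 0.78, ahead of the glycogen debranching enzyme gene GDB1 at 1.29 ± 0.51, the glutamate decarboxylase gene GAD1 at 1.14 ± 0.21 and SOL4 at 1.14 ± 0.21 (SD, n = 3). XBP1, GDB1 and GLC3 were called higher without replicate 1, and 0 of the 24 lower, against the same 5.29%. In section-centred values the median of the general stress list was 0.40.

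Other proteins of the plasma membrane gave a wider context. Among 14 measured genes of eisosomes, the protein complexes that underlie plasma membrane furrows, and of the surrounding Can1 compartment, 11 means lay above 0 and 6 genes were above 0 in every replicate, with a median of 0.27. Of all genes, 43.5% lay above 0 and 15.4% did so in every replicate. YNL194C had 1.17, 1.49 and 2.46, a mean of 1.71 ± 0.67. It was the only gene of the 14 called without replicate 1, as higher (7.14%, where 5.29% of all genes were called). As deposited, it and XBP1 were the only measured genes of the lists used here with a mean above that of YRO2. The lists were chosen with earlier results of these data known. Section-centred, YNL194C stood at 1.01, below the 1.48 of YRO2, while XBP1 (1.68), SOL4 (1.63) and PMP3 (1.51) stood above it. The tryptophan permease gene TAT2 stood at 0.91 ± 0.28, the eisosome core gene PIL1 at 0.57 ± 0.28 and MDG1 at 0.52 ± 0.37 (SD, n = 3). Of 4 measured genes for other multi-pass receptors, 2 means lay above and 2 below 0, with a median of -0.06. These were IZH4 at 0.47 ± 0.46, IZH1 at 0.13 ± 0.73, IZH3 at -0.25 ± 0.83 and the pheromone receptor gene STE3 at -0.57 ± 0.38 (SD, n = 3).

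**Figure D4:**
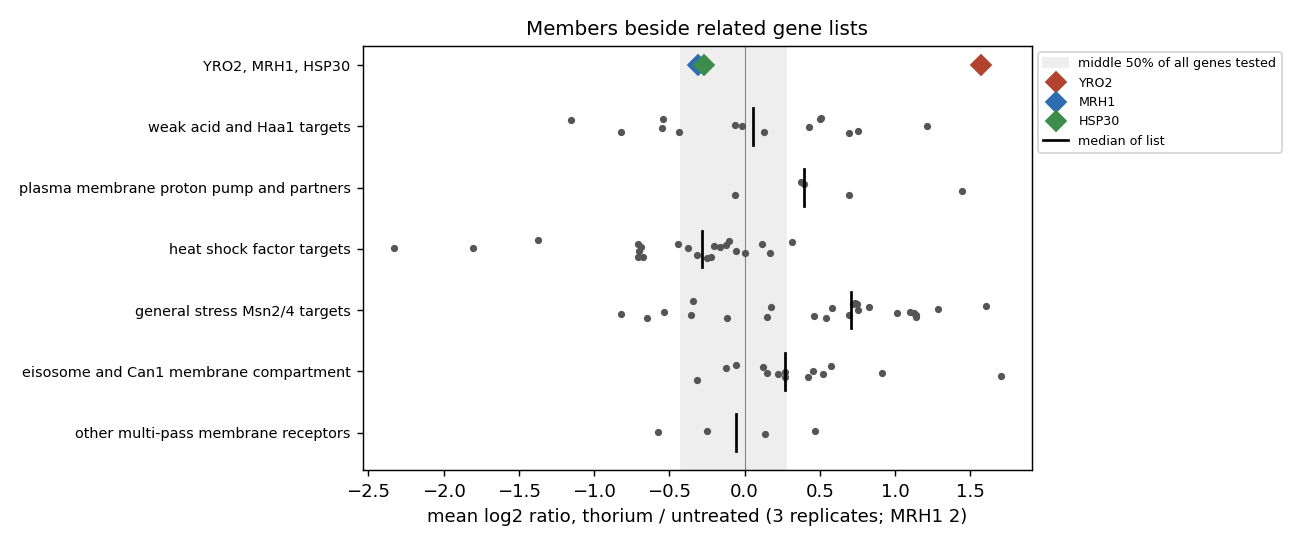
Mean log2 ratio of thorium over untreated cells for YRO2, MRH1 and HSP30 (diamonds) and for the measured genes of 6 related lists (points), with list medians as black bars and the interquartile range of all genes tested shaded. YRO2 lies at 1.57, above every measured list gene but XBP1 and YNL194C as deposited, and MRH1 and HSP30 lie within the shaded range.

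Laser power was compared within replicates for the 2108 genes read in both scans of all 3, and none of the 3 genes was among them. By limma 2 genes were called (0.0949% called), TIR1 and MEH1, both with a higher mean at high power. Replicate 1 had the largest gap for both genes. High minus low was 5.26, 0.74 and -0.07 for TIR1 in replicates 1, 2 and 3, so replicate 3 was not higher. For MEH1 it was above 0 in every replicate, but fell from 3.02 in replicate 1 to 0.20 in replicate 3. Without replicate 1, 0 genes were called.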

How the data were processed

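The deposited file holds log2 ratios of the 2 channels, for each probe and scan. LOWESS normalization was applied to spots flagged 0, per the labels. The background step, the scanner and all versions were not given in the sources used here. After LOWESS a shift common to most genes is not visible, and signal over background is not known. Of 6912 probes, 5513 carried 1 gene name, 1399 were unnamed and 0 had several. Entrez IDs gave current symbols for 5360 of 5365 genes (assembly R64).

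Probes were averaged per gene, then scans per replicate. Genes with 3 replicate values entered limma 3.58.1 (lmFit, eBayes; R 4.3.3), tested 2-sided against 0 with Benjamini-Hochberg adjustment. The fit was tested on simulated data. Sections are the first 3 digits of the probe number, an inferred layout. Section-centring subtracts the section median in each scan where at least 5 probes have values.

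Members, lists and section-centring were chosen with earlier results of these data known. Named genes are the 3 members, up to 4 genes per list with the largest absolute mean, all measured proton pump genes and the 5 genes nearest to each member. Others, among them the related pairs, are named where a count or pair singled them out, after their values were seen. No sequences were used.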

Additional observations from a re-analysis of the deposited data

How the results depend on the processing

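The mean of YRO2 ran from 1.37 (high power scans alone, which lack replicate 2) to 1.81 (quantile normalization), and that of HSP30 from -0.31 to -0.19. Each stayed within 1 SD of its value above in all 11 alternatives that gave one, but several of these could not have shown otherwise. Leaving out 1 of 3 replicates cannot move a mean by 1 SD. The median over probes and scans, and the inclusion of genes with at least 2 replicates, left both means unchanged. With all 6 scans and the replicate block the means of YRO2 and HSP30 were 1.56 and -0.27. MRH1 ran from -0.47 to -0.15 except under section-centring, where it was 0.44. No member was measured in both scans of all replicates, so that alternative gave them no value. The count of called genes was 0 under every alternative except without replicate 1, so its range over left-out replicates was 0 to 191. For laser power it was 0 to 2, with 0 genes called without replicate 1. The cause was not tested. Of the list medians, which were recomputed after the data were seen, those of the proton pump genes (0.56 without replicate 1) and of the general stress genes (0.40 section-centred) moved beyond the SD of the replicate medians. Without replicate 1 those of the weak acid, heat shock and receptor lists were 0.16, -0.47 and -0.32, and that of the receptors was 0.18 when section-centred. The number of arrays limits precision, and MRH1 rests on 2.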

Other observations

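The genes nearest to YRO2 depended on the array section. After section-centring, 0 of its 5 nearest genes were the same as before. The nearest were then DAL80, a repressor gene of nitrogen use, at a root mean square difference of 0.198, the acid phosphatase gene PHO5 at 0.306, GAT1, an activator gene of nitrogen use, at 0.390, GID7 at 0.411 and YLR031W at 0.448. Section-centred, DAL80 read 2.14, 1.85 and 0.63, beside 2.04, 2.04 and 0.36 for YRO2. GAS5, nearest as deposited, had a section-centred mean of 0.98. For MRH1 and HSP30 too, 0 of 5 were shared. Many genes lie close to these 2, so small shifts can replace their nearest genes, and that count says little about the section.

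The chromosomal neighbours of the 3 genes, looked up after the values were seen, did not share the level of YRO2. YBR053C, next to YRO2, read -0.41, -0.51 and -0.40, and MRX18, the nearest measured gene on the other side, averaged 0.06 ± 0.81 (SD, n = 3). Beside MRH1, PST2 stood at -0.76 ± 0.16 (SD, n = 2) and LYS14 at 0.02 ± 0.95 (SD, n = 3). On either side of HSP30, the nearest measured genes were MAK31 at -0.63 ± 0.57 and YCR023C at -0.24 ± 0.50 (SD, n = 3).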
